A study of Mus musculus with 18 samples.

Results

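Neutrophils store the proteins they use against microbes in granules, and the genes for 10 of these proteins were followed here in the livers of newborn mice. The members were taken by name from the authors' table of scaled counts: the rows of Mpo, Elane, Prtn3 and Ctsg, the primary granule genes, and of Ltf, Camp, Ngp, Lcn2, S100a8 and S100a9, called the later granule genes. All 10 were found among the 31165 genes of the table, and all 10 passed the filter on low values (a mean of at least 10 across 18 libraries) that left 14104 genes for testing. A scaled count is a gene's read count after division by a size factor for its library, rounded by the authors.

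The study asked what a synthetic microRNA does to the liver of a growing mouse. C57BL/6J pups received miR-497a-5p mimic or a scrambled control mimic into the abdominal cavity on postnatal days 1 and 3 (P1 is the day of birth), and the liver was collected on day P5, P7 or P14. The groups were P5 mimic, P5 scrambled, P7 mimic, P7 scrambled, P14 mimic and P14 scrambled, with 3 livers each, 18 in all, and each is named below by its group and replicate number. Every liver, scrambled ones included, came from a pup that had been injected, so the age comparisons describe injected pups. Doses of 100 and 10 mg/kg appear in the protocol without being tied to a library. Litters are not given either, so p-values measure the spread between these livers.

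Neutrophils arise from promyelocytes, which make the primary (azurophil) granules and transcribe the genes of their enzymes in a short window. Myelocytes and metamyelocytes then fill the secondary granules with lactoferrin, cathelicidin and lipocalin, and the calprotectin subunits gather in the cytosol as the cells mature. The primary genes thus mark early stages and the later genes mark later ones. The liver is the main blood-forming organ of the mouse fetus, and this activity moves to the bone marrow and spleen around and after birth. C/EBP-alpha, PU.1 and the RUNX1 complex are known regulators of the primary granule genes, and C/EBP-epsilon is needed for the secondary granule genes.

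All coordinates are on GRCm38, as in the table. Mpo, which encodes myeloperoxidase, lies at chr11:87793581-87804413, plus strand. Elane, neutrophil elastase, lies at chr10:79886247-79888215, plus strand, only 3072 bases beyond Prtn3, proteinase 3, at chr10:79879614-79883174, plus strand. Ctsg, cathepsin G, lies at chr14:56099881-56102574, minus strand. Of the later genes, Camp, the cathelicidin antimicrobial peptide (chr9:109847379-109849617, minus strand), Ngp, neutrophilic granule protein (chr9:110419747-110423012, plus strand), and Ltf, lactoferrin (chr9:111019271-111042767, plus strand), share a stretch of chromosome 9, with 570 kb between the first pair and 596 kb between the second. S100a8 (chr3:90668978-90670035, plus strand) and S100a9 (chr3:90692632-90695721, minus strand), the subunits of calprotectin, are 22.6 kb apart. Lcn2, lipocalin 2 (chr2:32384633-32387797, minus strand), binds bacterial iron carriers and is also made by hepatocytes in an acute phase response.

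The members share a drop with age, so the letters around their starts were compared. RefSeq promoter windows on GRCm38.p6 hold 250 bases before and 50 after each gene start, and all 10 members matched. Their RefSeq starts lay 0 to 203 bases from the starts in the table. Each window is written below along its gene's own strand, with matches in either direction to TTNNGNAA (C/EBP), GAGGAA (PU.1) or TGNGGT (RUNX) in capitals. The windows of Mpo (chr11:87793534-87793833, plus strand), Elane (chr10:79886062-79886361, plus) and Prtn3 (chr10:79879417-79879716, plus) are shown as primary genes, and those of Ltf (chr9:111019042-111019341, plus) and Ngp (chr9:110419558-110419857, plus) as later ones.
Mpo: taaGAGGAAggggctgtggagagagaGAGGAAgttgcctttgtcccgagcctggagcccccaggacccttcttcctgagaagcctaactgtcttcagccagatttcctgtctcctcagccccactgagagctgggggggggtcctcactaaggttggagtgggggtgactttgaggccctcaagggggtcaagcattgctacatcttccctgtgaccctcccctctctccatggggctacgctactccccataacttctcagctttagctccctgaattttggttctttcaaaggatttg
Elane: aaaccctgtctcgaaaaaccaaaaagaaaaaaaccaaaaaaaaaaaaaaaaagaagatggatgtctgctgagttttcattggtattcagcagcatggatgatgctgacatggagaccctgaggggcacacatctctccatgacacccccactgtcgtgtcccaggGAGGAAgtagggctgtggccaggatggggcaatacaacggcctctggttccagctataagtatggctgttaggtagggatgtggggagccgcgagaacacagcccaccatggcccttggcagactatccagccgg
Prtn3: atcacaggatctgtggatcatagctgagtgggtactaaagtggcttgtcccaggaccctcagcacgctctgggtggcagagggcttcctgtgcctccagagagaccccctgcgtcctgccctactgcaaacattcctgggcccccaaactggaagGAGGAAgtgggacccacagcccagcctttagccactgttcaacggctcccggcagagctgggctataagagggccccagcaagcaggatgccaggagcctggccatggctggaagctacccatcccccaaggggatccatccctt
Ltf: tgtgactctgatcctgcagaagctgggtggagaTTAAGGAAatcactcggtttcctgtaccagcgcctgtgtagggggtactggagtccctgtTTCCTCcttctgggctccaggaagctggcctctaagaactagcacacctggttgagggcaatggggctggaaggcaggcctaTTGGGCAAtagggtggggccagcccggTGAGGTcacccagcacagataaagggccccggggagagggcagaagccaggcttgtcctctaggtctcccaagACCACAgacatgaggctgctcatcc
Ngp: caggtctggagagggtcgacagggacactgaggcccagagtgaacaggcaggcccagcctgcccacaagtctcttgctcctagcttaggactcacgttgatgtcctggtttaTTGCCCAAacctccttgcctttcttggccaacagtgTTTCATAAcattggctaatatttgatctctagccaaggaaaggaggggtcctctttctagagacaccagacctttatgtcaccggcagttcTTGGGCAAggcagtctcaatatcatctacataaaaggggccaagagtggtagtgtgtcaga

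Matches were spread unevenly over the 2 stages. GAGGAA stood in all 4 primary windows, 247 and 224 bases before the start of Mpo, 85 before Elane, 95 before Prtn3 and 216 before Ctsg, and in 3 of the 6 later ones. Over all 32851 windows of the same length, 28.3% held it. TTNNGNAA stood in 0 of the 4 primary windows and in 5 of the 6 later ones, every later gene except Camp, with 3 matches in Ngp and 2 each in Ltf and S100a9, against 40.7% of all windows. Only this exact pattern was counted. TGGGGCAA in the Elane window and TGAGGCAA in the Camp window, with G in place of the second T, were left out. The split between the stages therefore depends on the pattern used, and near matches were not counted over all windows. TGNGGT stood in the windows of Ctsg, Ltf and S100a9, against 45.8% of all. None of the matches in the members overlapped (0 pairs). A match describes the letters of the window and is not evidence that a factor binds there.

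The injected microRNA has the mature sequence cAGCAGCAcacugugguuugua (RefSeq, GRCm38.p6, chr11:70234730-70234751, plus strand), where the capitals mark the seed, bases 2 to 8. A messenger RNA that pairs with the seed carries TGCTGCT. This site occurred in 0 of the 10 members' 3′ UTRs, read from the longest coding transcript of each gene in GENCODE M21, which were 56 bases (Camp) to 603 bases (Ngp) long.

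Before the members, a few facts of the libraries bear on them. The scaled counts summed to 3954405 to 4248257 per library. The liver label held: Alb and Afp, the albumin and alpha-fetoprotein genes of hepatocytes, had at least 1672 and 1016 scaled counts in every library. P7 scrambled replicate 3 listed 30412 genes above 0, against 19198 to 22132 in the others, and genes near 0 elsewhere carried 2.93 scaled counts per kb there. P7 scrambled replicate 2 listed 22132 genes, and the same genes carried 0.168 per kb in it, against at most 0.0268 in the remaining libraries. Both replicates were therefore also left out together as a setting. P5 scrambled replicate 2 had the highest Alb value, 2886, against 1672 to 2328 in the other 17 livers.

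Levels per kb of transcript reach an upper range that touches the later members. Alb, with a mean of 1083 scaled counts per kb at P5, was the highest of all tested genes of 500 bases or more, and only 3 of 13214 tested genes with a length exceeded 1000 per kb. S100a9 stood at 767 ± 189 per kb at P5 (SD, n = 6), Ngp at 663 ± 173, S100a8 at 629 ± 154, Lcn2 at 573 ± 154 and Camp at 499 ± 128. The lower part of the order held Ltf at 418 ± 141, Prtn3 at 386 ± 121, Mpo at 328 ± 93.7, Elane at 301 ± 102 and Ctsg at 226 ± 77.9. Each neighbouring pair in this order differed by less than 1 SD. By these means, all 4 primary genes stood below all 6 later ones per kb at P5. The order did not hold in every liver: in P5 mimic replicate 3, Prtn3 had 382 per kb and Ltf 344.

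At P14 the order per kb was wider. S100a9 had 353 ± 78.3, S100a8 277 ± 61.3, Lcn2 229 ± 50.2, Ngp 198 ± 59.6 and Camp 122 ± 50.4 scaled counts per kb (SD, n = 6). Prtn3 with 68.5 ± 20.7 and Ltf with 65.0 ± 24.3 stood side by side, above Mpo with 22.1 ± 10.7, Elane with 20.3 ± 8.79 and Ctsg with 7.98 ± 6.47. Prtn3 was the 1 primary gene that did not stand below every later gene at P14.

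Scaled counts of the granule genes were higher in the livers at P5 and P7 and fell steeply by P14. Among these 10 members, the primary genes fell more than most later ones. The medians of wider lists of neutrophil genes, given below, did not share this order, and single genes of those lists differed widely. The sum of the 10 members made up 0.108% to 0.198% of a library's scaled counts at P5, 0.0872% to 0.110% at P7 and 0.0190% to 0.0427% at P14. These are shares of scaled counts, in which Alb stood at 1083 per kb at P5 and S100a9 at 767, and not shares of the liver's transcripts. In whole-liver RNA, fewer neutrophils and precursors and less RNA per cell cannot be told apart.

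The age comparison asks how the transcripts changed as the liver matured. Mpo had 628, 866.5 and 1372 scaled counts at P5 (lowest, median and highest of 6 livers), 487, 590.5 and 776 at P7, and 14, 66.5 and 92 at P14. Elane, the serine protease cut into its active form in the same granules, had 197, 286 and 480 at P5, 142, 184 and 238 at P7, and 9, 19 and 30 at P14. For both genes the P7 and P5 livers overlapped, and every P14 liver lay below every earlier one. Prtn3 had 301, 365 and 636 at P5, 173, 214.5 and 271 at P7, and 44, 66.5 and 106 at P14. Ctsg had 170, 201 and 379 at P5, 75, 114 and 150 at P7, and 0, 7.5 and 19 at P14. These 2 proteases parted all 3 days without overlap.

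The 6 later genes were also lowest at P14. Ltf, whose protein withholds iron from bacteria, had 851, 1030.5 and 1901 scaled counts at P5, 827, 933.5 and 1015 at P7, and 101, 177.5 and 266 at P14. Camp had 308, 350 and 569 at P5, 247, 266 and 306 at P7, and 53, 88 and 151 at P14. Ngp, a relative of the cathelicidins, had 652, 751 and 1230 at P5, 606, 634.5 and 757 at P7, and 163, 238 and 352 at P14. Camp parted all 3 days, while the P7 and P5 livers overlapped for Ltf and Ngp. Lcn2 had 414, 482.5 and 800 at P5, 349, 405 and 461 at P7, and 173, 188 and 284 at P14. S100a8 had 254, 279 and 455 at P5, 205, 220.5 and 285 at P7, and 92, 132 and 176 at P14. S100a9 had 325, 376.5 and 589 at P5, 268, 294 and 363 at P7, and 127, 177 and 239 at P14. In these 3 genes, too, only the P14 livers stood clear of the rest.

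**Figure D1:**
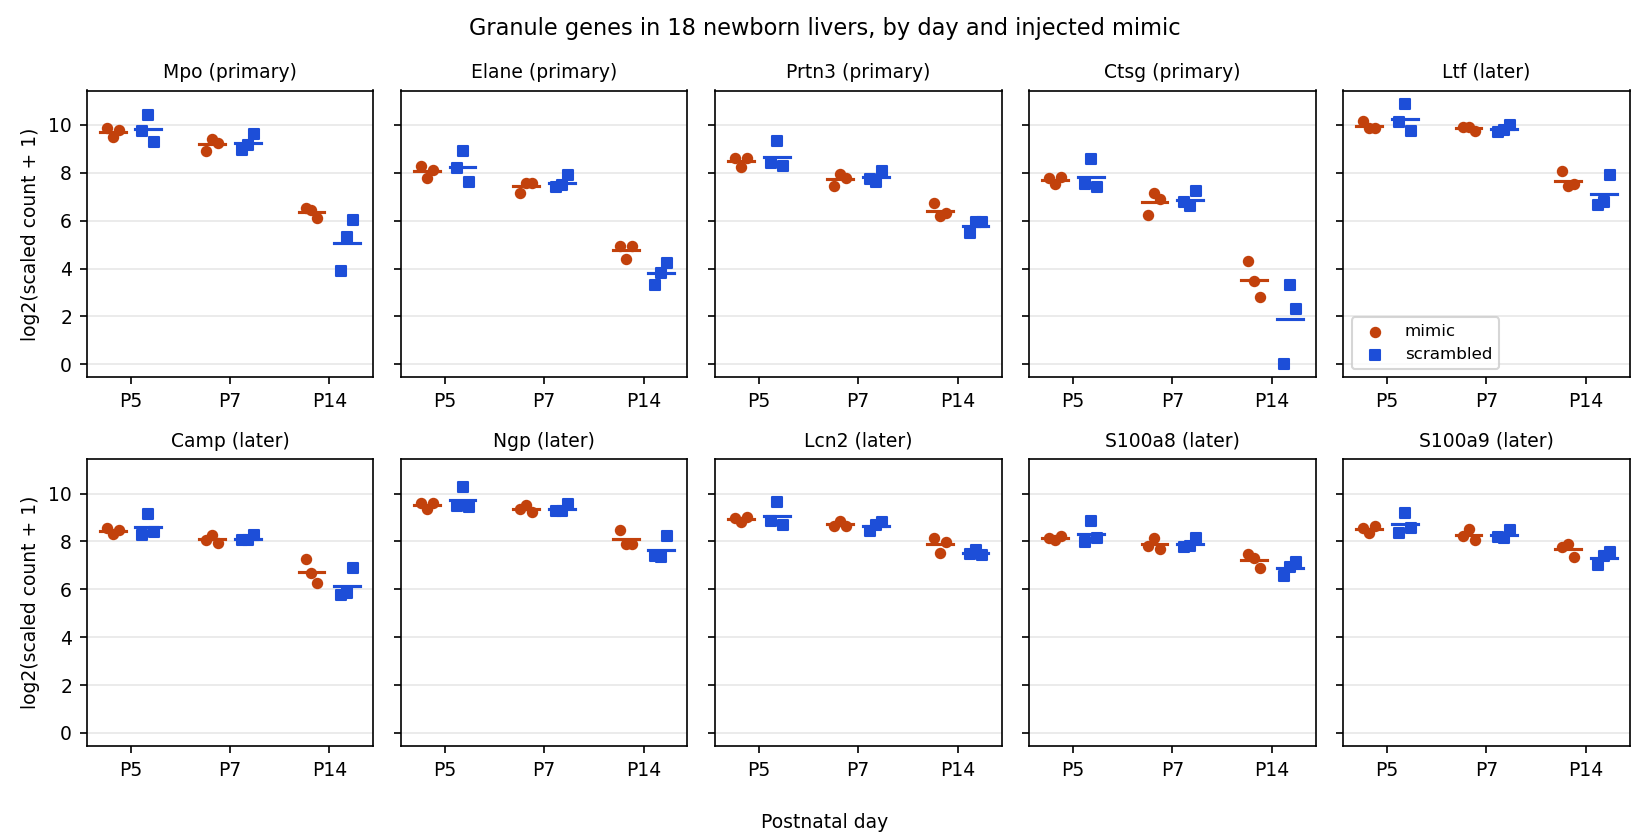
Scaled counts of the 10 granule genes in each liver, as log2(scaled count + 1), by postnatal day, with mimic livers (circles) left of scrambled livers (squares) and a line at each mean of 3. Every gene is lowest at P14 in both injection groups, and the mimic livers at P14 sit above the scrambled ones without overlap for Mpo, Elane and Prtn3.

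Between P7 and P14 all 10 members fell. In a limma fit of log2(value + 1), adjusted by Benjamini-Hochberg across the 14104 genes, 10 of 10 passed an adjusted p of 0.05 as lower at P14, where 26.3% of all genes did. The groups of 6 livers did not overlap for any of the 10, against 14.6% of all genes without overlap in that direction. Ctsg fell by 4.12 on the log2 scale (SE 0.40, adjusted p 2e-07), which equals 17.3-fold, with 8 ± 6.48 scaled counts at P14 against 115 ± 27.6 at P7 (SD, n = 6 each). With a pseudocount of 5 its change was -3.33. Mpo fell by 3.49 (SE 0.25, adjusted p 4.45e-09), to 60.7 ± 29.5 at P14 against 602.5 ± 109 at P7. The log2 change was -3.24 (SE 0.20) for Elane and -1.66 (SE 0.16) for Prtn3.

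Among the later genes Ltf had the largest fall of these 6, at -2.46 (SE 0.19, adjusted p 1.2e-08), to 178 ± 66.6 at P14 against 926 ± 73.7 at P7. The log2 change was -1.67 (SE 0.19) for Camp, -1.49 (SE 0.16) for Ngp, -0.99 (SE 0.14) for Lcn2, -0.84 (SE 0.15) for S100a8 and -0.77 for S100a9 (SE 0.14, adjusted p 0.000208). The median over the 4 primary genes was -3.365 and over the 6 later genes -1.24, while over all tested genes it was 0.01. Each of these falls was larger than the spread between replicates.

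The fall was present in each injection group. In mimic livers alone all 10 members were lower at P14 than at P7, where 17.1% of all genes were, with log2 changes of -3.23 for Ctsg to -0.59 for S100a9. In scrambled livers alone all 10 were again lower, against 19.4% of all genes, with changes of -5.00 for Ctsg to -0.95 for S100a9. The values for Mpo were -2.82 (SE 0.36) in mimic livers and -4.16 (SE 0.36) in scrambled livers. These 2 comparisons draw on different livers, and the test of the difference between the days is given with the mimic comparison. Within mimic livers the call for S100a9 was lost without P14 mimic replicate 1 (adjusted p 0.0569) or 3 (0.138) or P7 mimic replicate 1 (0.0726) or 2 (0.109), and that for S100a8 without P14 mimic replicate 3 (0.102) or P7 mimic replicate 2 (0.0889). Within scrambled livers the change of Ctsg was -4.06 without P14 scrambled replicate 1, which listed it at 0, and -5.72 without P14 scrambled replicate 2, and that of Mpo was -3.57 without replicate 1.

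Between P5 and P7 the differences were smaller and passed the test for 2 primary genes. Prtn3 fell by 0.82 (SE 0.16, adjusted p 0.00391 by limma), to 219 ± 35.4 at P7 against 396 ± 124 at P5 (SD, n = 6 each). Elane fell by 0.64 (SE 0.20, adjusted p 0.0263), to 184.5 ± 32.0 at P7 against 296 ± 100 at P5. No other member passed, so 2 of 10 were called, where 13.2% of all genes were called lower. Before adjustment, 8 of 10 had p under 0.05, where 41% of all genes did. All 10 differences were below 0, from -0.95 (SE 0.40, adjusted p 0.0845) for Ctsg to -0.26 (SE 0.19, adjusted p 0.335) for Ltf, and the P7 and P5 livers did not overlap for Prtn3, Ctsg and Camp, against 3.31% of all genes without overlap as lower.

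Single libraries move these P7 calls. The count of called members was 1 without any of P5 mimic replicates 1 and 3, P5 scrambled replicate 2, P7 mimic replicate 1 and P7 scrambled replicates 1 and 2, because Elane then had an adjusted p between 0.0561 and 0.0781. It was 4 without P14 scrambled replicate 1 or P7 mimic replicate 2 and 5 without P5 scrambled replicate 1. Prtn3 passed in all of these. In mimic livers alone only Prtn3 was called, at -0.77 (SE 0.23, adjusted p 0.042), where 3.37% of all genes were called lower, and it was lost without P5 mimic replicate 1 or 3, P7 mimic replicate 1 or 3 or P14 scrambled replicate 2 (adjusted p 0.0502 to 0.207), with no filter on low values (0.0711) and with no mean-variance trend (0.0702). In scrambled livers alone limma called 0 members and 0 genes of 14104 (0%), while 3265 genes (23.1%) and 4 members (Elane, Prtn3, Lcn2 and S100a9) had an unadjusted p under 0.05, and without P5 scrambled replicate 1 Prtn3 (adjusted p 0.0187) and S100a9 (adjusted p 0.0472) passed.

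**Figure D2:**
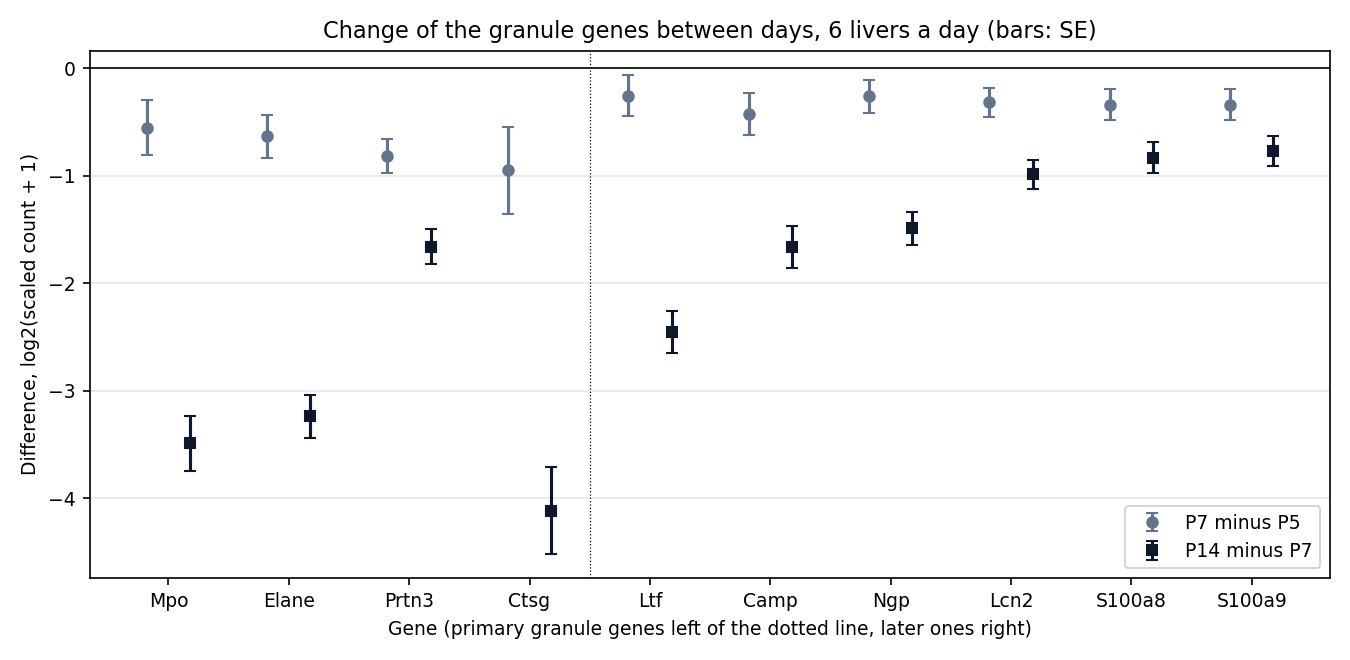
Log2 difference of each granule gene between days over both injections, 6 livers a day, with P7 minus P5 as circles and P14 minus P7 as squares and bars for the SE. The P14 squares run from -4.12 for Ctsg to -0.77 for S100a9, and all P7 circles lie between -0.95 and -0.26.

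Over the whole span all 10 members were lower at P14 than at P5, where 24.8% of all genes were, again without overlap of the 6 livers on each side (15.3% of all genes). Ctsg changed by -5.07 (SE 0.40), Mpo by -4.05 (SE 0.25), Elane by -3.87 (SE 0.20) and Prtn3 by -2.48 (SE 0.16). Ltf changed by -2.71 (SE 0.19), Camp by -2.09 (SE 0.19), Ngp by -1.76 (SE 0.16), Lcn2 by -1.31 (SE 0.14), S100a8 by -1.18 (SE 0.15) and S100a9 by -1.11 (SE 0.14). The adjusted p was at most 2.49e-06 in this set. The stage groups were not cleanly parted: Prtn3 lost less than Ltf.

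The balance between the stages can be read within each liver. The mean log2(value + 1) of the 4 primary genes minus that of the 6 later genes was -0.45 ± 0.13 in the 6 livers of P5, -0.86 ± 0.20 in those of P7 and -2.62 ± 0.55 in those of P14 (SD). Single livers ran between -0.67 and -0.36 on P5, between -1.22 and -0.67 on P7 and between -3.63 and -2.22 on P14, so the P14 livers stood clear and the other days met at the edge. In terms of scaled counts, the primary genes made up 30.7% to 35.1% of the members' sum at P5, 23.8% to 31.2% at P7 and 8.52% to 15.2% at P14. This score describes genes chosen for their stage and carries no test. The later genes also stood at higher levels per kb at P5, and the part of level in this balance was not tested.

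**Figure D3:**
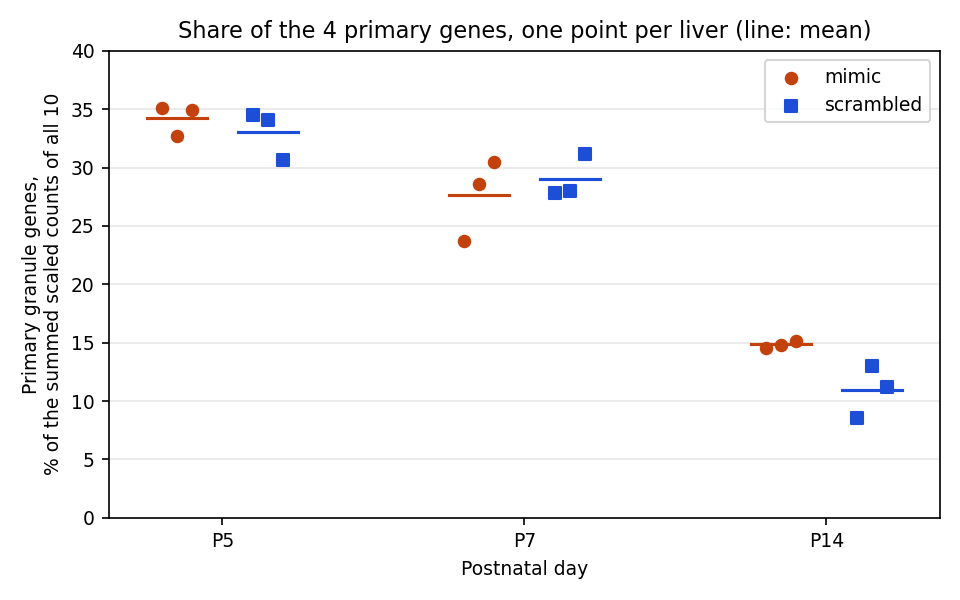
Share of the 4 primary granule genes in the summed scaled counts of all 10 genes, in percent, 1 point per liver, with mimic livers (circles) left of scrambled livers (squares) and a line at the mean. The share is lowest at P14, at 14.6% to 15.2% in mimic livers and 8.52% to 13% in scrambled livers.

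The size of the fall went along with the level at P5. Across the 10 members, the change between P5 and P14 and the P5 level per kb had a Spearman rho of 0.939, meaning that genes with higher levels fell less. These are 10 genes measured in the same libraries, not independent points. Over 10 other promyelocyte genes rho was 0.77, over 25 other mature neutrophil genes 0.148, and over 13214 tested genes with a length -0.0464. The value of 0.77 includes Hp (895 per kb, change -0.04), Mgst1 (680, 0.07) and Ctsc (318.5, -0.28), named after their values were seen. They had the highest levels and the smallest changes of that list, and rho without them was not computed. Genes of both stages at like levels lay close in some pairs and far apart in others, here chosen after their values were seen. Ltf with 418 per kb changed by -2.71 and Prtn3 with 386 per kb by -2.48. Ctsg with 226 per kb changed by -5.07, and Wfdc21, of the mature neutrophil list, with 233 per kb by -1.27. The later granule genes stood nearest to the highest levels in the table, and the part of this in their smaller falls was not tested. The sources used here do not tell whether duplicate reads were taken out.

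**Figure D4:**
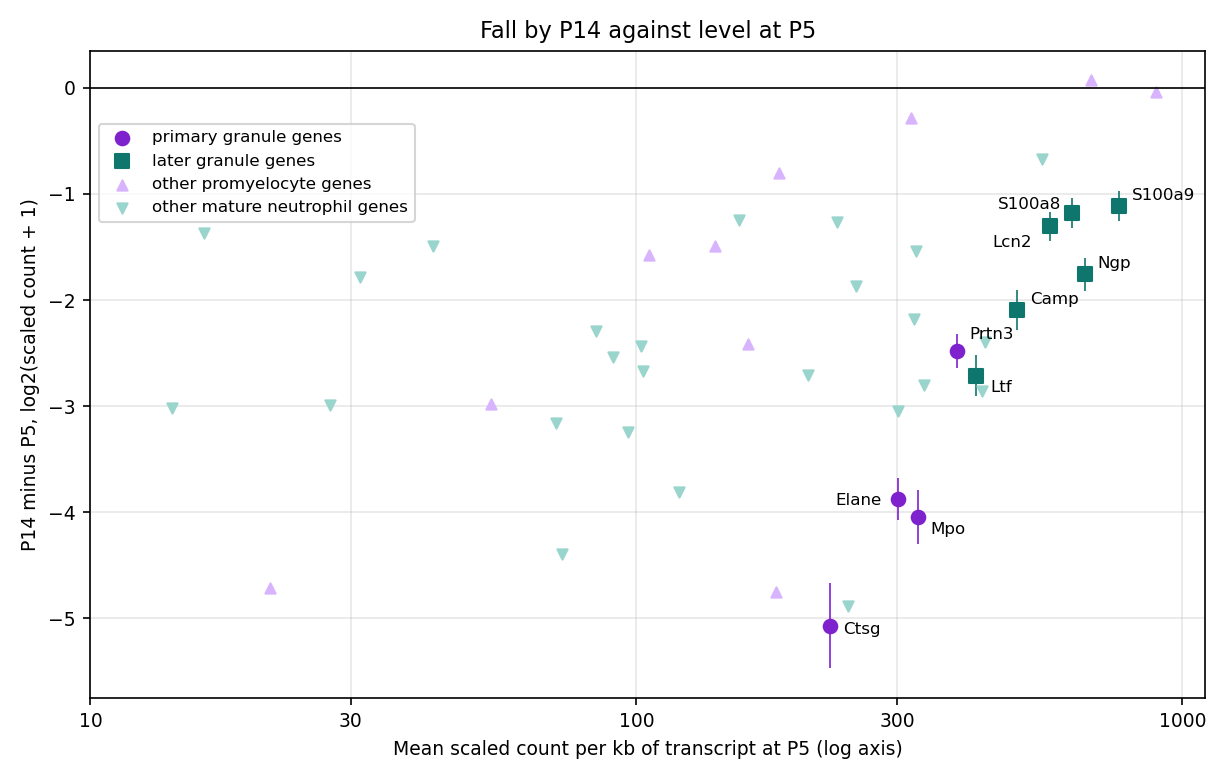
Log2 change between P5 and P14 (vertical) against the mean scaled count per kb at P5 (horizontal, log axis), for the primary (circles) and later (squares) granule genes with bars for the SE, and for 10 other promyelocyte and 25 other mature neutrophil genes (triangles). The 10 members climb from Ctsg at 226 per kb and -5.07 to S100a9 at 767 per kb and -1.11, while most of the other neutrophil genes lie at lower levels with changes of all sizes.

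Ratios between members show which pairs kept step. S100a8 over S100a9, whose proteins pair in calprotectin, had medians of 0.768 on P5, 0.769 on P7 and 0.735 on P14, with ranges that overlapped. Mpo over Elane had medians of 3.10 at P5, 3.25 at P7 and 3.03 at P14, with a range of 1.56 to 4.30 at P14. Elane over its neighbour Prtn3 did not keep step. Its livers ran between 0.625 and 0.867 on P5 (median 0.738), between 0.781 and 0.912 on P7 (0.847) and between 0.205 and 0.385 on P14 (0.279), so at P14 every liver lay below every earlier one. Mpo over Ltf had medians of 0.776 on P5, 0.664 on P7 and 0.352 on P14. Camp over Ngp had 0.473, 0.415 and 0.370 on the same days. All of these are ratios of scaled counts, not of transcripts.

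Within a group the 10 genes moved together from liver to liver. P5 scrambled replicate 2, P7 scrambled replicate 3 and P7 mimic replicate 2 held the highest value of their group of 3 for 10 of 10 members, and P5 mimic replicate 2 held the lowest for 10 of 10. The first 3 libraries also had the highest Alb value of their group and P5 mimic replicate 2 the lowest of its group, with 1899 against a highest of 2328. The part of library scaling in these shared shifts was not tested. At P14, mimic replicate 1 had the most Alb of its group (2244) and the highest value of 9 members, while scrambled replicate 1 had the most Alb (2242) and the lowest value of 8 members. Residuals around the 6 group means had a median r of 0.771 over the 6 primary pairs, 0.749 over the 15 later pairs and 0.731 over the 24 mixed pairs, over the same 18 libraries, as a description.

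Other genes of the same cells fell with the members between P7 and P14. Of 10 other promyelocyte and primary granule genes, 8 were lower, where 26.3% of all genes were, and 1 was higher. Their median was -1.20 (all genes 0.01). Ms4a3, a membrane protein of granulocyte and monocyte progenitors, fell by 3.65 (SE 0.24, adjusted p 9.2e-10) to 5.5 at P14 against 75.5 at P7 as medians of 6 livers. Prss57, a granule serine protease, changed by -3.61 (SE 0.35), Serpinb1a, an inhibitor of neutrophil serine proteases, by -1.84 (SE 0.16) and Cst7, the cystatin F gene, by -1.96 (SE 0.27). The 1 higher gene was Mgst1 at 0.23 (adjusted p 0.0422), a microsomal glutathione transferase that hepatocytes also express, named after its value was seen. Its adjusted p ran from 0.0151 to 0.11 with 1 library left out, so this call rests on single libraries.

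Of 25 other later granule and mature neutrophil genes, 24 were lower, where 26.3% of all genes were, and 0 higher, with a median of -1.95. At the median this list fell more than the other promyelocyte genes, the reverse of the order among the members. The promyelocyte median spans unlike changes: Hp, also listed as an acute phase gene, stood at 0.19, Mgst1 at 0.23 and Ctsc at -0.36. Ms4a3 stood at -3.65 and Prss57 at -3.61, beside -3.49 for Mpo. Hp, Mgst1 and Ctsc were named after their values were seen, and the median without them was not computed. Fcnb, ficolin B, fell by 4.16 (SE 0.33) to 9 at P14 against 158 at P7, and Olfm4, a marker of a neutrophil subset, changed by -4.12 (SE 0.28) to 9 at P14 against 152.5 at P7, as medians. Chil3, which monocytes share, fell by 2.72 (SE 0.21). Clec4d was the gene that did not pass, at -0.77 (adjusted p 0.192). The changes of the 25 genes ran from -4.16 for Fcnb to -0.42 for Lyz2. The stefin genes Stfa2 and Stfa2l1, also on this list, are near-identical copies whose reads counting may have split.

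The factors that direct granule making were lower as well. Of 12 transcription factors, 8 fell and 1 rose between P7 and P14, where 26.3% of all genes fell. Cebpe, C/EBP-epsilon, fell by 2.83 (SE 0.22, adjusted p 1.29e-08) to a median of 10 at P14 against 77.5 at P7. Gfi1, a repressor needed for neutrophil formation, changed by -2.66 (SE 0.30), Runx1 by -2.05 (SE 0.18) and Spi1, which encodes PU.1, by -0.83 (SE 0.10). The 1 gene that rose was Cebpb at 0.53 (SE 0.10, adjusted p 0.000335), the factor of emergency granulopoiesis that hepatocytes also carry, named after its value was seen, and Cebpa, abundant in hepatocytes, stood at 0.18 (adjusted p 0.0854).

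Among 16 receptors and signals, 14 were tested, 11 were lower and 1, the chemokine gene Cxcl12, was higher at P14 than at P7 (0.16, adjusted p 0.0491, named after its value was seen). Of all tested genes, 26.3% were called lower. Csf2rb, the shared beta chain of the GM-CSF receptor, changed by -1.52 (SE 0.12), Cxcr4, the receptor that holds neutrophils in the marrow, by -1.71 (SE 0.17), and Selplg, a selectin ligand, by -1.14 (SE 0.11). All 6 NADPH oxidase genes, which make the superoxide of the phagosome, were lower, with changes of -1.61 (SE 0.15) for Ncf4, -1.39 (SE 0.15) for Cybb, -1.35 (SE 0.15) for Ncf1 and -1.06 (SE 0.11) for Rac2.

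Earlier, between P5 and P7, 6 of the 10 other promyelocyte genes and 4 of the 25 mature neutrophil genes were lower and 0 were higher, where 13.2% of all genes were called lower. Ms4a3 changed by -1.10 (SE 0.24, adjusted p 0.00523) and Cst7 by -1.02 (SE 0.27). Of the mature neutrophil list Mcemp1, a membrane protein gene whose name refers to mast cells, changed by -0.82 (SE 0.22, adjusted p 0.0145). The call of Mcemp1 was lost without P7 scrambled replicates 2 and 3 (adjusted p 0.123). Whether the promyelocyte genes fell earlier than the mature ones was not tested.

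Most lists of other blood cell markers moved with the members. Over all 14104 tested genes, 26.3% were called lower and 3391 genes higher at P14 than at P7. Between P7 and P14, 17 of 21 red cell precursor genes were lower and 0 higher (median -3.57), with Kel at -5.65 (SE 0.20), and 12 of 12 megakaryocyte and platelet genes were lower (median -1.83). Lower, too, were 11 of 12 monocyte genes, 9 of 9 tested eosinophil, basophil and mast cell genes out of 16 (median -2.05) and 6 of 12 B cell genes, with 0 higher in each. Of 12 Kupffer cell genes 7 were lower (median -0.24), and of 10 hepatocyte genes 2 were lower and 3 higher (median 0.23). The hepatocyte counts lay near the shares over all genes. As sums of scaled counts, the red cell list had 2563 to 4384 at P14 against 10195 to 16791 at P7, and the Kupffer list 5843 to 7221 at P14 against 6960 to 8614 at P7. A stem and progenitor list changed little, with 1566 to 1747 at P14 against 1709 to 1882 at P7, ranges that overlapped. The eosinophil peroxidase gene Epx, a defining marker of eosinophil granules, had 0 to 1 scaled counts at P14 and 0 to 16 at P7. The part of each cell type in the fall of the granule genes was not tested.

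The genes most like Mpo over the 18 livers, ranked by Pearson's r on log2(value + 1), were Slc4a1 (0.991), Fcnb (0.989), Trim10 (0.989) and Epb42 (0.988). Except for Fcnb these belong to the red cell list. Among the members, Elane was most like Mpo, with an r of 0.989. The genes outside the members most like Ltf were Cd177 (0.992), I830127L07Rik (0.992), Chil1 (0.991), Olfm4 (0.990) and Stfa2 (0.989), of which Cd177, Olfm4 and Stfa2 are on the mature neutrophil list. The member most like Ltf was Ngp (0.992). The livers share libraries and age groups, so r describes the shared drop with age.

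The mimic comparison asks whether the injected microRNA changed the granule genes, and limma called none of the 10 on any day. At P14, however, all 10 values were higher on average in mimic livers, with the primary genes highest. By limma 0 of 10 members passed an adjusted p of 0.05, where 3 of 14104 genes did (0.0213%), and 4 had an unadjusted p under 0.05, all primary, where 763 genes did (5.41%). All 10 differences were above 0, against 51.1% of all genes, with a median of 1.13 for the primary genes and 0.40 for the later ones, against 0.00361 over all genes. That the neutrophil genes lean this way at P14 had been seen in these data before the members were chosen, so it is a description.

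Mpo at P14 had 92, 86 and 69 scaled counts in mimic livers, against 14, 39 and 64 in scrambled livers. It averaged 82.3 ± 11.9 in mimic livers and 39.0 ± 25.0 in scrambled livers (SD, n = 3 each), which differed by 1.29 on the log2 scale (SE 0.36, adjusted p 0.382 by limma). The groups did not overlap, but the lowest mimic liver and the highest scrambled liver were only 5 scaled counts apart. Without P14 scrambled replicate 3 the difference was 1.76 and passed (adjusted p 0.0476), and without P14 scrambled replicate 1 it was 0.70 (adjusted p 0.929).

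Elane at P14 had 30, 20 and 30 scaled counts in mimic livers, against 9, 13 and 18 in scrambled livers, a log2 difference of 0.97 (SE 0.28, adjusted p 0.398 by limma). Prtn3 had 106, 73 and 78 in mimic livers, against 44, 60 and 60 in scrambled livers, a difference of 0.63 (SE 0.23, adjusted p 0.725). Neither overlapped. Mpo, Elane and Prtn3 were thus the 3 of 10 members with every mimic liver above every scrambled one, as 4.96% of all genes were. Ctsg had 19, 10 and 6 in mimic livers, against 0, 9 and 4 in scrambled livers, a difference of 1.65 (SE 0.57, adjusted p 0.682) on very low values that overlapped. Leaving out P14 scrambled replicate 1 gave 0.71, leaving out replicate 2 of that group gave 2.37 (adjusted p 0.14), and it was 0.88 with a pseudocount of 5.

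The later genes overlapped between the injections at P14. Ltf had 266, 173 and 182 scaled counts in mimic livers, against 101, 109 and 239 in scrambled livers, a log2 difference of 0.55 (SE 0.27, adjusted p 0.928 by limma). Camp had 151, 101 and 75 in mimic livers, against 53, 56 and 117 in scrambled livers. Ngp had 352, 239 and 237 in mimic livers, against 169, 163 and 295 in scrambled livers. In each of these 3, scrambled replicate 3 lay inside the mimic range. Lcn2 had 284, 180 and 249 in mimic livers, against 177, 196 and 173 in scrambled livers. S100a8 had 176, 156 and 119 in mimic livers, against 92, 122 and 142 in scrambled livers. S100a9 had 218, 239 and 162 in mimic livers, against 127, 166 and 188 in scrambled livers. Over the 6 later genes the differences ran from 0.34 to 0.57, with adjusted p of 0.918 to 0.976.

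The primary genes made up 14.6% to 15.2% of the members' sum in P14 mimic livers, against 8.52% to 13% in P14 scrambled livers. The mean log2 of the primary genes minus that of the later ones was -2.33 to -2.22 in mimic livers and -3.63 to -2.39 in scrambled livers. Neither measure overlapped between the injections. Set against Ltf, Camp and Ngp alone, the balance did overlap, with -2.285 to -2.17 in mimic livers and -3.43 to -2.06 in scrambled livers, so the separation depends on the later genes used. None of these measures was tested.

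At P5 the lean was the other way and within the spread. Mpo had 948, 725 and 874 scaled counts in mimic livers, against 859, 1372 and 628 in scrambled livers. Ltf had 1137, 927 and 944 in mimic livers, against 1117, 1901 and 851 in scrambled livers. Scrambled replicate 2 was the highest of the 6 P5 livers for all 10 members, and the mimic values lay inside the scrambled range for both genes. The log2 differences ran from -0.29 (Ltf, SE 0.27) to -0.10 (Mpo, SE 0.36), limma called 0 of 10 members and 0 of 14104 genes (0%), and 266 genes (1.89%) had an unadjusted p under 0.05, none of them a member. Without scrambled replicate 2 all 10 differences were above 0, from 0.03 for Ltf to 0.25 for Ctsg.

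At P7 the values of the injections lay close together. Mpo had 487, 671 and 609 scaled counts in mimic livers, against 500, 572 and 776 in scrambled livers. Ltf had 975, 977 and 869 in mimic livers, against 827, 892 and 1015 in scrambled livers. Prtn3 had 173, 246 and 219 in mimic livers, against 210, 194 and 271 in scrambled livers. All 3 overlapped widely, as did the other 7 members. The differences ran from -0.14 (Elane, SE 0.28) to 0.06 (Lcn2, SE 0.19), limma called 0 of 10 members where 1 of 14104 genes passed (0.00709%), and 7 of the 10 were below 0. An unadjusted p under 0.05 was found for 1073 genes (7.61%), none of them a member.

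**Figure D5:**
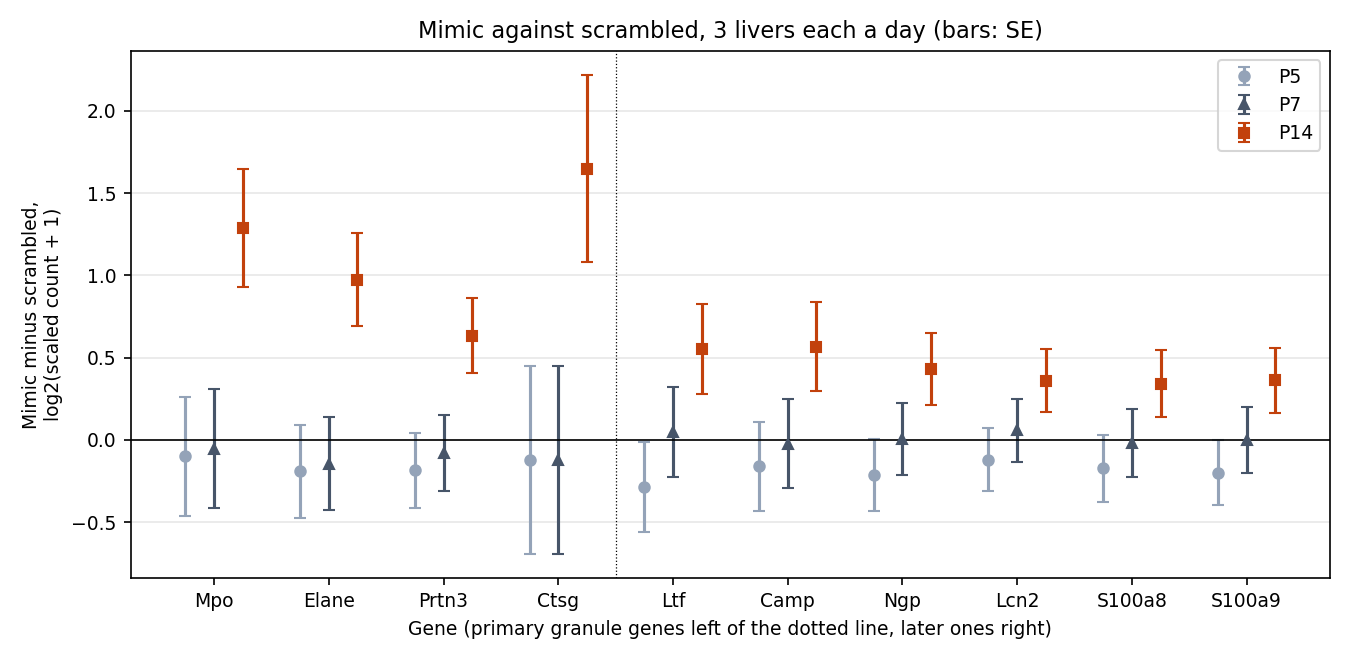
Log2 difference between mimic and scrambled livers for each granule gene at P5 (circles), P7 (triangles) and P14 (squares), 3 livers on each side, with bars for the SE. The P14 values are all above 0, from 0.34 for S100a8 to 1.65 for Ctsg, and none passed the threshold over all genes.

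Averaged over the 3 days, limma called 0 of 10 members, where 1 of 14104 genes passed (0.00709%) and 457 genes (3.24%), none a member, had an unadjusted p under 0.05, with differences of 0.05 for S100a8 to 0.47 for Ctsg. Whether the mimic difference itself changed between days was tested with an F test in the same limma fit. None of the 10 passed (1 gene, 0.00709%, did), with adjusted p of 0.629 for Elane to 0.917 for Lcn2. Unadjusted p was 0.0135 for Elane, 0.0212 for Mpo and 0.0423 for Prtn3, as 6.5% of all genes had an unadjusted p under 0.05, and 0.0637 to 0.231 for the other 7.

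Other genes of these cells leaned the same way at P14 without passing in the full set. Of the 25 other mature neutrophil genes 24 were above 0 (median 0.54), against 51.1% of all genes. By p they were led by Mmp8, the neutrophil collagenase, at 1.17 (SE 0.41, adjusted p 0.688 by limma). Ms4a3 stood at 0.93 (SE 0.34, adjusted p 0.725), though the 10 other promyelocyte genes had a median of -0.01, and Myb, a factor of blood progenitors, stood at 1.10 (SE 0.30, adjusted p 0.37). Without P14 scrambled replicate 3 Myb was at 1.51 and passed (adjusted p 0.0382), and Mmp8 was at 1.71 (adjusted p 0.132). Without P14 scrambled replicate 1 they were at 0.71 for Myb, 0.74 for Mmp8 and 0.60 for Ms4a3. Markers of other blood cells differed in their lean. The summed red cell genes were 3286 to 4384 in mimic livers and 2563 to 3381 in scrambled livers, and the B cell genes 595 to 767 in mimic livers and 361 to 711 in scrambled livers. The eosinophil, basophil and mast cell genes were 129 to 147 in mimic livers and 82 to 121 in scrambled livers. The monocyte genes were 3633 to 4718 in mimic livers and 4606 to 4818 in scrambled livers, and the megakaryocyte genes 953 to 1902 in mimic livers and 1153 to 1265 in scrambled livers. Kel, a red cell blood group gene, was the 1 gene on these lists that passed, higher by 2.14 (SE 0.28, adjusted p 0.00311, and 0.496 with only the libraries compared). Slc4a1, the red cell anion exchanger and the gene most like Mpo, had a lowest, median and highest of 208, 282 and 367 in mimic livers, against 57, 151 and 232 in scrambled livers. The summed hepatocyte genes were 15795 to 18787 in mimic livers and 18040 to 20276 in scrambled livers, and the Kupffer genes 6080 to 7221 in mimic livers and 5843 to 6694 in scrambled livers. The part of these cells in the lean of the granule genes was not tested.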

How the data were processed

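Gene expression was measured by stranded mRNA sequencing of liver RNA (miRNeasy extraction, VAHTS kit), per the labels' protocols. The deposited values are scores: gene counts that the authors scaled with library size factors and rounded, as judged from the values. Per the submitters' processing notes, the genome was mm10 (GRCm38) and the tools were DESeq2 1.26.0, featureCounts 1.6.5, Picard 2.21.7, STAR 2.6.1d and Trimmomatic 0.39. Depth in reads is unknown here, so no count model was run and no counting interval is given.

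Groups came from the sample titles. The 14104 of 31165 genes with an average of at least 10 were fitted in R 4.3.3 by limma 3.58.1 as log2(value + 1), with a mean for each of 6 groups. All 18 libraries shared the estimate of spread, whose trend with the mean was modelled (residual df 12, prior df 6.49). P-values were adjusted by Benjamini-Hochberg across the tested genes at a threshold of 0.05. On this scale the added 1 makes fold changes of low genes smaller, while a library at or near 0 can make them larger. The change of Ctsg between P7 and P14 over both injections was -4.12. It was -3.65 without P14 scrambled replicate 1, which listed Ctsg at 0, and -4.48 without P14 scrambled replicate 2. No pair of replicates was alike: the squared difference over the sum of both scaled counts, averaged over genes, was 1.82 to 8.78. Levels per kb used the longest coding transcript in GENCODE M21. Promoters and the microRNA came from RefSeq tables.

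The members, lists and motifs were chosen with earlier results of these data known. Named genes are the 10 members, up to 4 genes of smallest p per list, up to 5 genes outside the members most like Mpo and Ltf, Alb and Afp, and others are marked where named. Of the genes picked this way, 1 is not reported here. The model code was tested on simulated data first. Other settings were TMM, quantile normalization, a pseudocount of 5, a minimum mean of 50 or none, no trend, only the libraries compared, a replicate block and libraries left out. Further software was the package data.table (version 1.17.8), matplotlib 3.10.9, pandas 2.3.3, numpy 2.4.6 and Python 3.11.15.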

Additional observations from a re-analysis of the deposited data

How the results depend on the processing

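Between P7 and P14, and between P5 and P14, all 10 members were called lower in every setting tried over both injections. The 2 members called between P5 and P7 became 1 without P7 scrambled replicates 2 and 3, 5 with only the libraries compared and 1 to 5 with 1 library left out. The 1 called in mimic livers became 0 without those replicates, with no filter and with no trend, 5 with only the libraries compared and 0 to 1 with 1 library left out. With 1 library left out, the count was 0 to 2 in scrambled livers (0 in the full set) and 0 to 1 for the mimic at P14 (0 in the full set).

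The replicate block left 0 called in mimic livers, ending the call of Prtn3 (adjusted p 0.0513). Livers were not treated as paired, since same-numbered deviations did not correlate over 0.1 in every pair: they ran from -0.234 to 0.293, with 18 of 45 pairs over 0.1, against -0.303 to 0.404, with 16 of 90 pairs over 0.1, for other numbers.

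Within mimic livers S100a9 was also not called lower at P14 with no filter (adjusted p 0.0535) or no trend (0.0544), and within scrambled livers S100a8 (0.0678) and S100a9 (0.0669) were not without P7 scrambled replicates 2 and 3.

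Signs turned for small mimic differences that did not pass the test. With 1 library left out, the log2 difference at P5 was -0.36 to 0.20 for Mpo, -0.50 to 0.14 for Elane, -0.37 to 0.13 for Prtn3, -0.33 to 0.25 for Ctsg, -0.55 to 0.0341 for Ltf, -0.33 to 0.11 for Camp, -0.36 to 0.0496 for Ngp, -0.30 to 0.17 for Lcn2, -0.33 to 0.0851 for S100a8 and -0.38 to 0.0484 for S100a9. At P7 it was -0.19 to 0.13 for Mpo, -0.24 to 0.0117 for Elane, -0.19 to 0.06 for Prtn3, -0.31 to 0.13 for Ctsg, -0.0192 to 0.13 for Ltf, -0.11 to 0.047 for Camp, -0.0592 to 0.11 for Ngp, -0.041 to 0.14 for Lcn2, -0.16 to 0.0935 for S100a8 and -0.12 to 0.11 for S100a9. Averaged over days it was -0.0069 to 0.14 for S100a8 and -0.0063 to 0.14 for S100a9. Between P5 and P7 in mimic livers it was -0.14 to 0.0054 for Ltf. At P7, TMM gave 0.026 for Camp, 0.0296 for S100a8 and 0.049 for S100a9, and quantile normalization -0.0087 for Ltf and -0.035 for Ngp. Without P7 scrambled replicates 2 and 3 the P7 difference was 0.055 for Camp, 0.053 for Elane, 0.22 for Mpo, 0.0031 for Prtn3, 0.10 for S100a8 and 0.089 for S100a9. The cause was not tested. Values under 20 scaled counts for Ctsg at P14 limit the precision there, and 3 livers a group limit the mimic comparisons.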
